A study of Mus musculus with 6 samples.

Results

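Triglyceride lipases release fatty acids from stored or circulating fat, and a few partner proteins set their activity. The set described here has 9 genes, chosen by name from the 13273 protein-coding genes of the table, and all 9 were found and tested. They are the lipases of the cell Pnpla2, Pnpla3, Pnpla8, Lipe and Mgll, the partners G0s2 and Abhd5 of the lipase encoded by Pnpla2, and the secreted lipases Lipc and Lpl. Liver RNA was sequenced from 3 ETOH-WT and 3 PF-WT mice, with 1 library per mouse. All were wild type C57Bl/6 females, 2 months old when feeding began and kept in pairs, and their livers were taken on day 21, after 3 weeks on Lieber–DeCarli liquid diet. After 3 days on the control liquid diet, the concentration of ETOH given to ETOH-WT mice was stepped up until it reached 6.4% v/v. PF-WT mice stayed on the control diet, which had equal calories and no ETOH. The feeding scheme is a model of early alcohol-associated liver disease. Each column carries a code that the mice of 1 diet share and the other diet does not, and what it stands for beyond the diet cannot be told apart from the diet.

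Triglyceride stored in the droplets of a hepatocyte is broken down in steps. PNPLA2 (also called ATGL) removes the first fatty acid, hormone-sensitive lipase (Lipe) acts mainly on the diacylglycerol that is left, and monoacylglycerol lipase (Mgll) completes the breakdown. ABHD5 (CGI-58) activates PNPLA2 and G0S2 inhibits it. PNPLA3 (adiponutrin) is a droplet protein related to PNPLA2 whose gene is known to be induced by insulin and feeding through SREBP-1c, and PNPLA8 is a phospholipase of mitochondria and peroxisomes. Hepatic lipase (Lipc) and lipoprotein lipase (Lpl) are secreted and act on lipoproteins at the vessel wall. In adults Lpl is known to be low in hepatocytes.

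Values are FPKM (fragments scaled by transcript length and library depth) per liver. The test of diet was limma's, run on log2(FPKM + 1), a scale that understates the change of low genes. It covered the 11346 genes whose mean over the 6 livers reached 0.5 FPKM. A gene was called at a Benjamini-Hochberg adjusted p under 0.05 over all genes tested. The FPKM summed to between 567810 and 625000 per liver. The 7 Kupffer cell markers, 6 sinusoidal endothelial markers and 6 stellate cell markers were all in the table and none was called. All 6 hepatocyte markers were present and Tat, a glucocorticoid-induced enzyme, was the 1 of them called (lower). Of 7 adipocyte markers the table held Fabp4 and Adrb3, and Adrb3, a receptor of lipolytic hormones in fat, was lower. The 5 striated muscle and 6 exocrine pancreas markers are not analysed here. ETOH-WT mouse 1 had the highest sum and was the 1 library with no gene at 0, while the other libraries had 86 to 163 genes at 0. Its lowest value was 0.0867 FPKM, and whether genes were kept by their level in this library was not tested.

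Of the 9 genes, Pnpla2 was called higher and Pnpla3 was called lower in ETOH-WT livers, and 7 did not pass limma. Of all genes tested 6.64% were called, 3.97% higher and 2.67% lower. With 9 genes, 1 call more or less moves the share of the set widely. The median difference on the log2 scale was 0.04 for the 9 genes and 0.02 for all genes tested. The same 2 genes, Pnpla2 and Pnpla3, were the only ones of the 9 with no overlap between the diets, which held for 29.1% of the genes tested. No other of the 9 reached an unadjusted p under 0.05.

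The promoter sequences of the genes that moved, Pnpla3 and Pnpla2, are shown because these related lipases went in opposite directions. RefSeq promoter windows (GRCm38.p6, 250 bases before to 50 after a start site) were at hand for 8 of the 9 genes, in 11 windows. The bases before the start site are given 5′ to 3′ on the strand of the gene. Capitals mark every match, on either strand, to the Sp1 letters GGGCGG or to the cAMP response element letters TGACGTCA.
Pnpla3, chr15:84167566-84167815, plus strand: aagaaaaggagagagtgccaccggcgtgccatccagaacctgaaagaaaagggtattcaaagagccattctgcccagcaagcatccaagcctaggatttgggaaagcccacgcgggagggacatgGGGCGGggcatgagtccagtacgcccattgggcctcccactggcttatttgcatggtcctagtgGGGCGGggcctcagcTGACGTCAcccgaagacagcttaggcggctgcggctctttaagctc
Pnpla2, chr7:141454938-141455187, plus strand: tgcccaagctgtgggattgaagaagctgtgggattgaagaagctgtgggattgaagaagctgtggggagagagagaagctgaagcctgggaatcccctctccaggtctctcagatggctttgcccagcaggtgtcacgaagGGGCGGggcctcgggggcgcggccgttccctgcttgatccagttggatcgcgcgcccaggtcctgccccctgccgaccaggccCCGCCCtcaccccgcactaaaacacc
Both stretches hold 2 Sp1 matches, a motif found in 35.7% of all 32851 promoter windows. The Pnpla3 stretch also holds TGACGTCA at bases -46 to -39 from the start site, letters that 1.79% of all windows hold and that were searched after the sequence had been seen. The sterol element letters TCACNCCAC (1.24% of windows) and the direct repeat DR1 of nuclear receptors (0.0396%) matched none of the 11 windows. The E-box CACGTG (7.15%) and the FOXO letters GTAAACA (3.65%) matched windows of Mgll and Lipe only, and each of the 8 genes had a window with Sp1 letters. These matches describe the letters and are no evidence of binding.

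Pnpla3 (ENSMUSG00000041653, chromosome 15 of GRCm38, 84167816 to 84189512) showed by far the largest difference of the 9 genes. PF-WT mice 1, 2 and 3 had 31.6, 45.1 and 42.6 FPKM, and ETOH-WT mice 1, 2 and 3 had 2.06, 1.04 and 0.371 FPKM. Every ETOH-WT liver lay far below every PF-WT liver. The means were 39.8 ± 7.22 and 1.16 ± 0.853 FPKM (SD, n = 3 mice each), a 34.4-fold lower level on the FPKM scale. This fold depends on the livers with very low values: it was 56.5 when ETOH-WT mouse 1 was left out and 25.7 when ETOH-WT mouse 3 was, a range computed after the data had been seen. On the log2 scale the difference was -4.30 (standard error 0.27, 95% interval -4.93 to -3.67, adjusted p = 0.00113 from limma). Its difference was the 3rd lowest of the 11346 genes tested, and its unadjusted p was the 2nd smallest. In bulk liver, fewer cells of a type and less RNA per cell cannot be told apart. Gm49513, a noncoding transcript on the same strand, shares 105 exon bases with Pnpla3 and is not analysed here.

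Pnpla2 (ENSMUSG00000025509, chromosome 7, 141455198 to 141460743), the lipase of the first step, rose modestly and evenly. Its level was 33.5, 32.5 and 32.7 FPKM in PF-WT mice 1, 2 and 3, and 48.2, 43.1 and 49.1 FPKM in ETOH-WT mice 1, 2 and 3. The PF-WT livers were almost alike, within 1 FPKM of each other, and all ETOH-WT livers were above them. The means of 32.9 ± 0.526 and 46.8 ± 3.27 FPKM (SD, n = 3 mice each) gave a ratio of 1.42 and a log2 difference of 0.49 (standard error 0.08, 95% interval 0.30 to 0.69, adjusted p = 0.0175 from limma). It was not called without PF-WT mouse 2 (adjusted p = 0.0857 from limma) or without ETOH-WT mouse 3 (0.0784), although the log2 difference stayed at 0.49 and 0.46.

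This related pair overlapped in level among PF-WT livers and lay far apart in ETOH-WT livers. In PF-WT mice 1, 2 and 3 the Pnpla3 level was 0.942, 1.39 and 1.30 times that of Pnpla2 in the same liver. In ETOH-WT mice 1, 2 and 3 it was 0.0428, 0.0241 and 0.00757 times that of Pnpla2. A ratio within a liver does not depend on how the library was scaled.

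**Figure D1:**
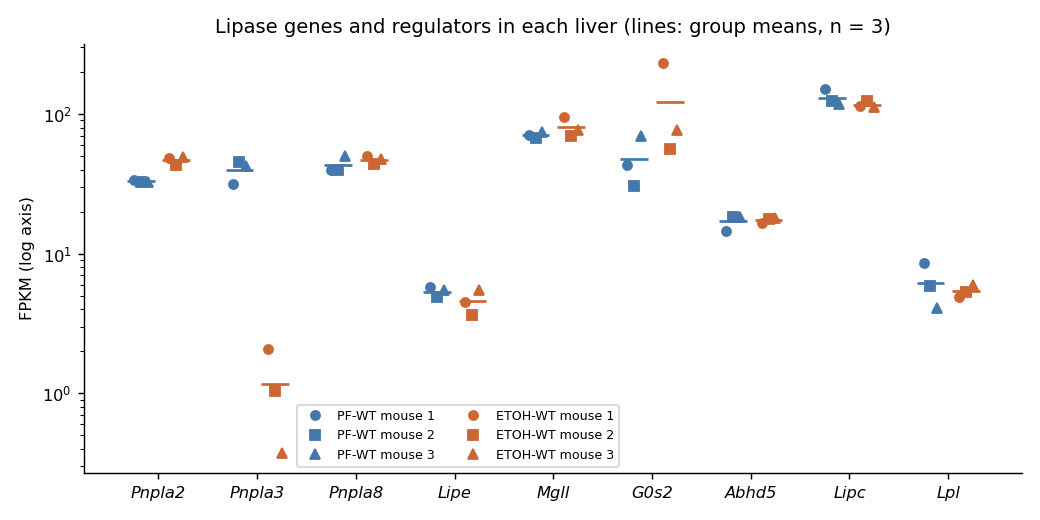
FPKM of the 9 genes on a log axis, with 1 point per liver (blue for PF-WT, orange for ETOH-WT, symbols for mice 1 to 3) and lines at the means of 3 livers. Pnpla3 drops from 31.6 to 45.1 FPKM in PF-WT livers to 0.371 to 2.06 FPKM in ETOH-WT livers, and Pnpla2 is the only other gene whose diets do not overlap.

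The remaining lipases of the cell overlapped between the diets. Pnpla8 (ENSMUSG00000036257, chromosome 12, 44221370 to 44312343) was at 39.6, 39.5 and 50.1 FPKM in PF-WT mice 1, 2 and 3 and at 50.1, 44.0 and 47.6 FPKM in ETOH-WT mice 1, 2 and 3. Its log2 difference was 0.14 (95% interval -0.12 to 0.40, adjusted p = 0.506 from limma), and the highest PF-WT liver reached the ETOH-WT range. Lipe (ENSMUSG00000003123, chromosome 7, 25379527 to 25398710), the hormone-sensitive lipase, was low in this tissue, at 5.76, 4.86 and 5.47 FPKM in PF-WT mice and 4.52, 3.63 and 5.54 FPKM in ETOH-WT mice. Its log2 difference of -0.20 (95% interval -0.53 to 0.12, adjusted p = 0.420 from limma) lay within the spread of the livers. Mgll (ENSMUSG00000033174, chromosome 6, 88724412 to 88828360), which acts on monoacylglycerol, was at 71.1, 67.2 and 73.8 FPKM in PF-WT mice. In ETOH-WT mice 1, 2 and 3 it was at 94.6, 69.5 and 76.3 FPKM, so mouse 1 alone stood clearly above the PF-WT livers. The log2 difference of Mgll was 0.17 (95% interval -0.11 to 0.45, adjusted p = 0.442 from limma), and 0.04 without ETOH-WT mouse 1. The intervals of Pnpla8 and Mgll both ended below the 0.49 measured for Pnpla2, while smaller changes in either direction lay within them. Both overlapped the interval of Pnpla2 (0.30 to 0.69), and differences between genes were not tested.

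**Figure D2:**
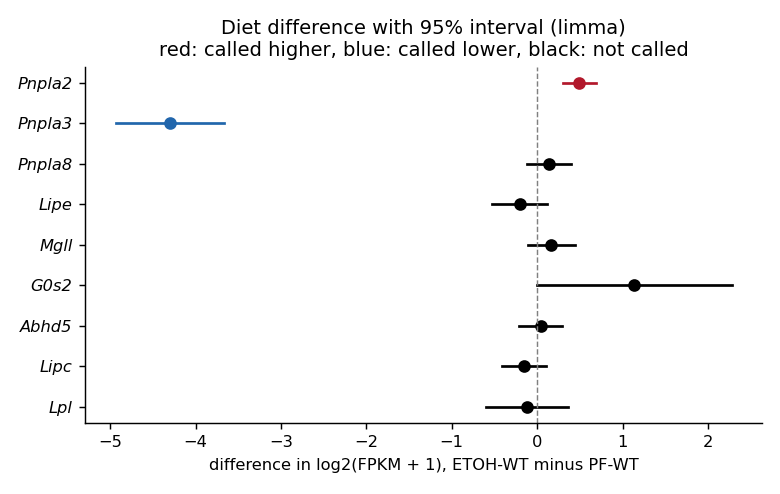
Difference of the diets in log2(FPKM + 1), ETOH-WT minus PF-WT, with 95% intervals from limma for the 9 genes (3 livers per diet). Pnpla2 at 0.49 and Pnpla3 at -4.30 are the called genes, and the widest interval is that of G0s2, from -0.01 to 2.28.

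Of the partners of PNPLA2, the inhibitor G0s2 varied most and the activator Abhd5 varied little. G0s2 (ENSMUSG00000009633, chromosome 1, 193272161 to 193273217) was at 43.0, 30.7 and 69.3 FPKM in PF-WT mice 1, 2 and 3 and at 230.2, 56.6 and 77.3 FPKM in ETOH-WT mice 1, 2 and 3. ETOH-WT mouse 1 was far above all other livers, while ETOH-WT mouse 2 lay below PF-WT mouse 3. The means of 47.7 ± 19.7 and 121 ± 94.8 FPKM (SD, n = 3 mice each) gave a log2 difference of 1.14 (standard error 0.50, 95% interval -0.01 to 2.28), which did not pass limma (adjusted p = 0.213). Without ETOH-WT mouse 1 the mean of the other ETOH-WT livers was 66.9 FPKM and the log2 difference was 0.54 (adjusted p = 0.355 from limma). With array weights, which give less weight to libraries that fit the groups poorly, G0s2 passed (log2 difference 1.39, adjusted p = 0.0427 from limma). Over all genes tested, that setting called 1327 higher and 945 lower, against 450 and 303 without weights. The coefficient of variation of G0s2 was 41.3% among PF-WT livers and 78.1% among ETOH-WT livers, the highest of the 9 genes in each diet.

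Abhd5 (ENSMUSG00000032540, chromosome 9, 122351608 to 122381524) was at 14.5, 18.3 and 18.3 FPKM in PF-WT mice and at 16.7, 17.8 and 17.9 FPKM in ETOH-WT mice. All ETOH-WT livers lay inside the PF-WT range, with a log2 difference of 0.04 (95% interval -0.21 to 0.29, adjusted p = 0.854 from limma). Noncoding genes on the opposite strand share exon bases with Abhd5 (950), Lipe (918), Mgll (167) and Pnpla8 (91). No source used here says whether the counting used strand, so reads of these antisense genes cannot be told apart from those of the lipase genes.

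Ratios of these partners to Pnpla2 were compared within livers, since inhibitor, activator and enzyme act on each other. The ratio of Abhd5 to Pnpla2 was 0.432, 0.562 and 0.559 in PF-WT mice 1, 2 and 3 and 0.345, 0.413 and 0.365 in ETOH-WT mice 1, 2 and 3, lower in all 3 ETOH-WT livers. This mostly restates the difference of Pnpla2 (0.49 on the log2 scale), since that of Abhd5 was 0.04. The ratio of G0s2 to Pnpla2 was 1.28, 0.944 and 2.12 in PF-WT mice and 4.77, 1.32 and 1.57 in ETOH-WT mice. Apart from ETOH-WT mouse 1, the ETOH-WT livers lay within the PF-WT range of this ratio. The ratio of G0s2 to Abhd5 was 2.97, 1.68 and 3.79 in PF-WT mice and 13.8, 3.19 and 4.31 in ETOH-WT mice. Over the 3 ratios, exact permutation tests (two-sided, n = 3 mice each) gave p = 0.1 for Abhd5 to Pnpla2, p = 0.4 for G0s2 to Pnpla2 and p = 0.2 for G0s2 to Abhd5, and 0.3, 0.4 and 0.3 after adjustment over the 3. The smallest p that 3 mice against 3 allow is 0.1, so no ratio could pass. The mean log2 ratio of G0s2 to Pnpla2 differed by 0.65 between the diets, and by 0.07 without ETOH-WT mouse 1.

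**Figure D3:**
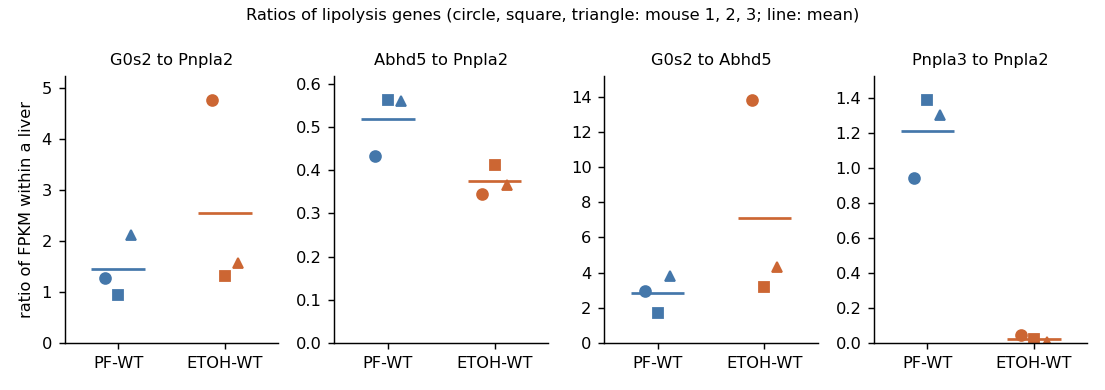
Ratio of the FPKM of one gene to that of another within each liver, on linear axes from 0, with symbols for mice 1 to 3 and lines at the means. ETOH-WT mouse 1 stands alone in both G0s2 ratios (4.77 and 13.8), and the Pnpla3 to Pnpla2 ratio falls from between 0.942 and 1.39 to at most 0.0428.

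The secreted lipases did not pass limma. Lipc (ENSMUSG00000032207, chromosome 9, 70798129 to 70934808), the hepatic lipase, was at 151, 124 and 118 FPKM in PF-WT mice and 114, 124 and 113 FPKM in ETOH-WT mice. The log2 difference of -0.16 (95% interval -0.41 to 0.10, adjusted p = 0.434 from limma) shrank to -0.05 without PF-WT mouse 1, the liver with the highest level. Lpl (ENSMUSG00000015568, chromosome 8, 68880491 to 68907448) was at 8.51, 5.88 and 4.08 FPKM in PF-WT mice and 4.91, 5.34 and 5.94 FPKM in ETOH-WT mice. The ETOH-WT livers fell between the extremes of the PF-WT livers, and the log2 difference was -0.12 (95% interval -0.60 to 0.36, adjusted p = 0.780 from limma). The summed level of the 7 Kupffer cell markers was 289, 274 and 146 FPKM in PF-WT mice 1, 2 and 3, the same order as Lpl. The sinusoidal endothelial sum (139, 130 and 116 FPKM) and the hepatocyte sum (74332, 73613 and 68308 FPKM) shared this order in these mice. The stellate cell sum (171, 177 and 179 FPKM) and the adipocyte sum (16.2, 13.4 and 16.8 FPKM) did not. In ETOH-WT mice 1, 2 and 3 the Kupffer cell sum was 227, 159 and 207 FPKM, and none of these sums had the order of Lpl. The part of any cell type in the Lpl level was not tested.

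In PF-WT livers the levels, which are per length, ran from Lipc at 131 FPKM over Mgll at 70.7, G0s2 at 47.7, Pnpla8 at 43.0, Pnpla3 at 39.8, Pnpla2 at 32.9, Abhd5 at 17.0 and Lpl at 6.16 to Lipe at 5.36 FPKM. From Mgll down to Pnpla2 each gene overlapped its next neighbor, as did Lpl and Lipe. The gaps lay between Lipc and Mgll, between Pnpla2 and Abhd5, and between Abhd5 and Lpl. In ETOH-WT livers Pnpla3 had become the lowest of the 9, below Lipe at 4.56 FPKM with no overlap. G0s2 had the highest mean there but overlapped Lipc.

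Of 16 intravascular partners of LPL and hepatic lipase, 2 were higher, none was lower and 14 did not pass limma, with a median log2 difference of 0.37 against 0.02 for all genes tested, of which 3.97% were called higher and 2.67% lower. Lmf1, a chaperone that folds both secreted lipases, was at 20.0, 18.7 and 20.0 FPKM in PF-WT mice and 26.5, 28.6 and 28.4 FPKM in ETOH-WT mice (log2 difference 0.49, standard error 0.08, adjusted p = 0.0167 from limma). Its adjusted p rose to 0.0870 when PF-WT mouse 2 was left out, and to 0.0739 when ETOH-WT mouse 3 was. Apoa4, an apolipoprotein, was at 172, 168 and 272 FPKM in PF-WT mice and 409, 1588 and 1339 FPKM in ETOH-WT mice (log2 difference 2.26, standard error 0.47, adjusted p = 0.0313). Apoa4 was lowest in ETOH-WT mouse 1 of the 3 ETOH-WT mice. It lost its call in 4 of the 6 fits that left out 1 liver (adjusted p up to 0.115). The LPL inhibitor Angptl4 was at 47.9, 52.6 and 66.5 FPKM in PF-WT mice and 130, 73.0 and 95.1 FPKM in ETOH-WT mice, with no overlap. Angptl4 did not pass (log2 difference 0.80, adjusted p = 0.0610 from limma), except without ETOH-WT mouse 2 (0.0284) and with array weights (0.00656), which called more genes in all. Of the 16 partners, 10 were higher and 2 lower at an unadjusted p under 0.05, against 1633 and 1059 of the 11346 genes tested.

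Of 10 droplet proteins that control access of lipases, 8 were in the table, of which 2 were higher, none was lower and 6 did not pass, with a median log2 difference of 0.34. The shares over all genes tested were 3.97% higher and 2.67% lower. Plin1 and Cidea are not analysed here. Cidec, which fuses droplets, was low at 0.240, 0.443 and 0.568 FPKM in PF-WT mice and 1.82, 1.79 and 0.906 FPKM in ETOH-WT mice (log2 difference 0.81, adjusted p = 0.0367 from limma, lost in 5 of 6 fits without 1 liver, up to 0.116). Hsd17b13, a droplet enzyme of hepatocytes, was at 205, 281 and 289 FPKM in PF-WT mice and 521, 407 and 476 FPKM in ETOH-WT mice (log2 difference 0.86, adjusted p = 0.0206, lost in 3 of 6 such fits, up to 0.0811). Plin5, which binds PNPLA2 and ABHD5 at the droplet, was at 13.0, 12.2 and 19.6 FPKM in PF-WT mice and 37.3, 18.2 and 23.1 FPKM in ETOH-WT mice. Plin5 did not pass (adjusted p = 0.139 from limma), except with array weights, which called more genes in all (log2 difference 0.88, adjusted p = 0.0187). Of the 8 genes, 6 had a positive log2 difference and 2 a negative one. The 2 were Cideb (-0.16, adjusted p = 0.308 from limma) and Plin2 (-0.33, adjusted p = 0.229). Plin2 was at 258, 276 and 316 FPKM in PF-WT mice and 279, 208 and 197 FPKM in ETOH-WT mice.

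Of 17 other hydrolases of glycerolipids and cholesteryl esters, 15 were in the table, of which 2 were higher, 1 was lower and 12 did not pass, with a median log2 difference of -0.02, against 3.97% higher and 2.67% lower of all genes tested. Pnpla1 and Pnpla5 are not analysed here. Abhd6, a monoacylglycerol lipase like Mgll, rose from 17.9, 17.3 and 17.8 FPKM in PF-WT mice to 42.5, 30.2 and 38.5 FPKM in ETOH-WT mice (log2 difference 1.02, standard error 0.13, adjusted p = 0.00666 from limma), and it stayed called without any 1 liver (at most 0.0360). Ces1d, a carboxylesterase of hepatocytes that hydrolyzes triglyceride, was at 447, 416 and 485 FPKM and 601, 630 and 766 FPKM (log2 difference 0.56, adjusted p = 0.0355). Ces1d lost its call with median-ratio scaling (0.0669), with quantile normalization (0.0515) and in 4 of 6 fits without 1 liver (up to 0.154), and its reads can be shared with other Ces1 genes, which are close copies. Ddhd1, a phospholipase, was at 7.76, 6.82 and 5.72 FPKM and 3.51, 4.53 and 4.54 FPKM (log2 difference -0.58, adjusted p = 0.0446, lost in 5 of 6 fits without 1 liver, up to 0.156).

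Of 19 genes of hormonal and transcriptional control, 1 was higher, 4 were lower and 14 did not pass, with a median log2 difference of -0.03. Of all genes tested 3.97% were called higher and 2.67% lower. The lower genes were Insig1, Srebf1, Mlxipl and Scap. Srebf1, which encodes the lipid synthesis factor SREBP-1c, was at 187, 204 and 168 FPKM in PF-WT mice and 106, 77.6 and 48.9 FPKM in ETOH-WT mice (log2 difference -1.31, adjusted p = 0.0227 from limma; 0.0568 and 0.0917 when PF-WT mouse 1 or 2 was left out). Insig1, a brake on SREBP processing, had a log2 difference of -1.80 (adjusted p = 0.00121) and stayed called without any 1 liver (at most 0.00992). Its relative Insig2 had a log2 difference of -0.14 and did not pass (adjusted p = 0.782 from limma). Insig2 was at 109, 102 and 126 FPKM in PF-WT mice and 83.2, 158 and 80.2 FPKM in ETOH-WT mice 1, 2 and 3, a wide spread. Mlxipl, which encodes ChREBP, was at 161, 172 and 157 FPKM and 121, 94.2 and 86.0 FPKM (log2 difference -0.71, adjusted p = 0.0208), and Scap, the escort of SREBP, had a log2 difference of -0.54 (adjusted p = 0.0443). Pparg, a nuclear receptor of lipid storage, was the 1 higher gene (log2 difference 0.80, adjusted p = 0.0202). Of the 6 fits without 1 liver, Scap lost its call in 5 (adjusted p up to 0.173), all but the fit without ETOH-WT mouse 2. Pparg lost its call in 3 of these fits (up to 0.0811), those without PF-WT mouse 1 or 2 or ETOH-WT mouse 3. Mlxipl lost its call in 2 (up to 0.0934), those without PF-WT mouse 2 or ETOH-WT mouse 3. The nuclear receptor Ppara, which drives fatty acid oxidation, had a log2 difference of -0.02 (adjusted p = 0.954).

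**Figure D4:**
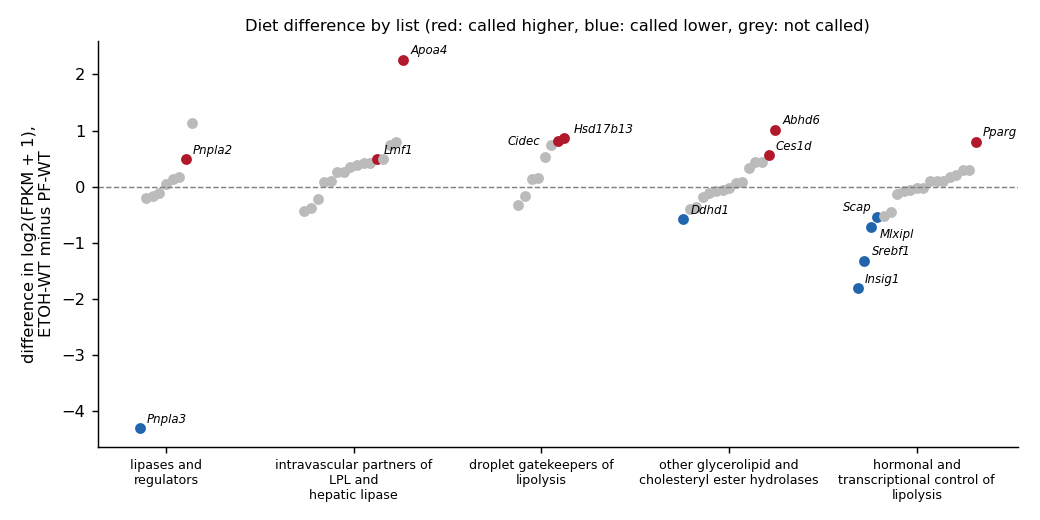
Difference of the diets in log2(FPKM + 1), ETOH-WT minus PF-WT, for each tested gene of the lipase set and of the 4 lists, with 1 point per gene sorted within its list. Red and blue points passed limma in either direction, and Pnpla3 at -4.30 lies below every gene of the 4 lists.

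The genes with the most similar pattern to Pnpla3, Pnpla2 and G0s2 were taken by the root mean square difference of log2(FPKM + 1) over the 6 livers, after each gene was centered on its PF-WT mean. For Pnpla3 the nearest were Scd1 (0.43 log2 units), Chrna4 (0.47), Fabp5 (0.57), A1bg (0.69) and Ces3b (0.85), all called lower. Scd1, a fatty acid desaturase, was at 2129, 4453 and 5301 FPKM in PF-WT mice and 217, 313 and 133 FPKM in ETOH-WT mice. For Pnpla2 the nearest were Pogk (0.03), Arhgap5 (0.04), Cmtm4 (0.04), Plod1 (0.05) and Rarg (0.05), all called higher. Rarg, a retinoic acid receptor, was at 2.60, 2.47 and 2.48 FPKM in PF-WT mice and 3.79, 3.41 and 4.01 FPKM in ETOH-WT mice. For G0s2 the nearest were Tpm2 (0.33), Txnip (0.34), Gadd45a (0.38), Rgs16 (0.38) and Usp2 (0.40). Each of these 5 was highest in ETOH-WT mouse 1, and only Gadd45a, a stress-induced gene of growth arrest, passed limma (log2 difference 1.14, adjusted p = 0.0376). Txnip was at 58.2, 60.0 and 61.8 FPKM in PF-WT mice and 272, 70.4 and 121 FPKM in ETOH-WT mice. These genes were chosen for their likeness, which is a description over 6 livers.

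**Figure D5:**
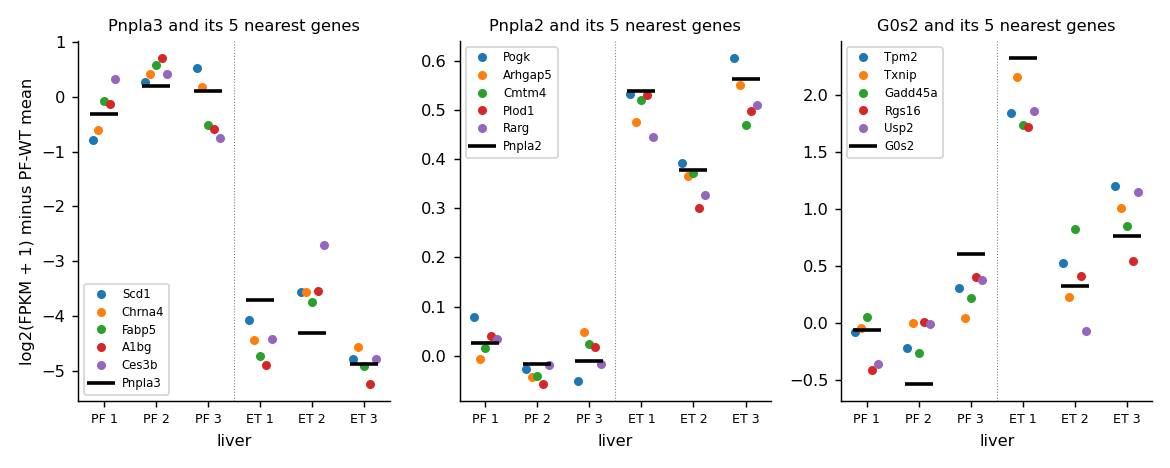
log2(FPKM + 1) minus the PF-WT mean in each liver for Pnpla3, Pnpla2 and G0s2 (black bars) and the 5 nearest genes of each (points). The genes near G0s2 share its highest value in ETOH-WT mouse 1, whereas those near Pnpla2 sit at like levels in all 3 ETOH-WT livers.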

How the data were processed

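The authors deposited 1 table with a column per library, whose values were taken as FPKM from their form; the file does not name the unit, and no source used here gives the program that made them. STAR, the GRCm38 genome, HTSeq-count and DESeq2 appear in the study's methods as the authors' tools. Credited to the submitters' notes, with no role, are TopHat2 (2.0.11), HTSeq (1.6.3 as well as 0.11.2), cutadapt and the build mm10. Because FPKM are not counts, no count model was fitted, and limma 3.58.1 in R 4.3.3 (eBayes with a variance trend, diet as the only term) was fitted on log2(FPKM + 1) of 11346 genes (mean 0.5 FPKM or more). The p-values of limma were two-sided and rest on the spread between 3 mice per diet. For each gene, limma drew that spread toward the trend over genes of similar level. The fit was tested on simulated data with known changes. Where a gene name was repeated (25 rows), its row of higher mean stood for it. Steps of single fragments were sought among low values of 2801 single-transcript genes and stood out from shuffled lengths by over 1.5 times in 1 of 6 libraries, ETOH-WT mouse 2, and not in the other 5, so no depths were compared and none was used. The starts of the table count from 0; with 1 added, 80.0% of its rows have both ends of GENCODE vM21. The 9 members and the lists were chosen with earlier results of these data known. Named are the 9 genes, up to 4 called genes of each list, and the 5 nearest patterns of called members and of G0s2. Scap, Insig2, Angptl4, Plin5, Plin2, Cideb, Ppara and the marker genes were named after their values were seen. Alternatives were pseudocounts of 0.1 and 2, no minimum and a minimum of 1 FPKM, median-ratio scaling, quantile normalization, array weights, a replicate block and leaving out each library. Ratios, motifs and plots were made in Python 3.11.15 with scipy 1.17.1, pandas 2.3.3, matplotlib 3.10.9 and numpy 2.4.6.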

Additional observations from a re-analysis of the deposited data

How the results depend on the processing

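Pnpla3 was called lower under all 14 alternatives (log2 difference -5.23 to -3.75, adjusted p from limma at most 0.0061). Pnpla2 was higher under all 14 (0.44 to 0.55) and lost its call when PF-WT mouse 2 or ETOH-WT mouse 3 was left out, so the count of higher lipase genes ranged from 0 to 1 when 1 library was left out, and that of lower ones stayed at 1. With array weights it was 2, with G0s2 added. Over all genes, 83 to 347 were higher and 76 to 300 lower without 1 library, and 1327 and 945 with array weights. With the replicate block 253 were higher and 201 lower, and Pnpla2 had an adjusted p of 0.0486 from limma. Same-numbered libraries did not deviate together (correlations across genes -0.03 to -0.01), and 0 of 6 libraries correlated best with its own number. This check cannot show whether the numbers pair the mice, because livers paired by feeding or cage need not deviate together. The sign of Abhd5 reversed with array weights (-0.0059) and without PF-WT mouse 1 (range without 1 library -0.064 to 0.096), and that of Lpl without PF-WT mouse 1 (range -0.34 to 0.11), none of them called. Of the 12 called genes of the 4 lists, 10 lost the call without at least 1 library, 10 of them when it was PF-WT mouse 2 and 8 when it was ETOH-WT mouse 3. With the replicate block, Lmf1 (adjusted p = 0.0528 from limma), Hsd17b13 (0.0521) and Cidec (0.0771) lost their calls. Ddhd1 lost its call with the replicate block and with no minimum. The difference in the log2 ratio of G0s2 to Pnpla2 ranged from 0.07 to 1.00 without 1 liver. The cause of these changes was not tested. Depth was not resolved in 5 of the 6 libraries, so low levels such as Pnpla3 in ETOH-WT livers carry no counting interval.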

Other observations

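ETOH-WT mouse 1 was the highest of the 3 ETOH-WT livers for 7 of the 8 droplet proteins tested and for 8 of the 16 intravascular partners, against 37.3% of all genes tested. It was the highest of the 3 for 4 of the 9 lipase genes, 3 of the 15 other hydrolases and 7 of the 19 genes of hormonal and transcriptional control. Among the droplet proteins was Plin4, a droplet coat protein, at 2.19, 0.610 and 0.599 FPKM in ETOH-WT mice 1, 2 and 3. Lipg, the endothelial lipase, was at 20.9, 4.52 and 10.9 FPKM in these mice and at 8.57, 9.87 and 10.0 FPKM in PF-WT mice. Irs2, an insulin receptor substrate, was lowest in ETOH-WT mouse 1, at 1.80 FPKM, against 4.70 and 5.98 FPKM in ETOH-WT mice 2 and 3. These genes were named after their values were seen.

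Adrb3, on the adipocyte list, fell from 3.49, 3.30 and 2.45 FPKM in PF-WT mice to 1.36, 1.29 and 1.19 FPKM in ETOH-WT mice (log2 difference -0.83, adjusted p = 0.0118 from limma), while Fabp4, on the same list, was at 12.7, 10.1 and 14.3 FPKM and 13.8, 12.3 and 13.2 FPKM.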
